A study of Mus musculus with 6 samples.

Results

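Myosins, tropomyosins, alpha-actinins and tubulins were followed in RNA sequencing of mouse liver. The set was taken from the deposited count table by gene symbol alone: every Myh, Myl or Myo gene with a number, Tpm1 to Tpm4, Actn1 to Actn4, and every alpha-, beta- or gamma-tubulin symbol. The rule itself reads only symbols. It gave 64 of the 16603 genes in the table. The 6 libraries fall into 3 labelled WT (wild-type) and 3 labelled Mdr2-knockout (Mdr2-/-), and the study asked how hepatic progenitor cells become active and turn into cholangiocytes, the cells that line bile ducts. The labels give liver as the tissue and the genotype, but no age, sex, strain, allele or treatment, and they do not say that the samples are separate animals. A p-value below is thus set against the scatter among samples, part of which may be technical.

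Non-muscle myosin II, built from heavy chains with regulatory and essential light chains, slides actin filaments and gives most cells their contractile force. Tropomyosins lie along the actin filament and alpha-actinins crosslink it, while unconventional myosins carry membranes and cargo or tether the membrane to actin. Microtubules are polymers of alpha- and beta-tubulin, each encoded by several isotype genes, and gamma-tubulin starts their growth. In liver these proteins shape the bile canaliculus, the ducts and the contractile stellate cells.

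Mdr2 is encoded by Abcb4, the transporter that moves phospholipid into bile, and its counts served as the check of the labels. Abcb4 had 5190, 5776 and 4330 counts in the wild-type-labelled libraries and 10071, 10188 and 8347 counts in the knockout-labelled libraries, so the label is not borne out by a lower count. The table names its columns N and M; M begins the Mdr2 titles, and N was matched to wild-type by elimination. Counts cover the whole gene and cannot show an inactivating allele, and every direction below is drawn between libraries as labelled. Library totals ran from 17100393 to 18124467 counts. Levels are given as CPM, counts scaled to a common library size, after scaling by trimmed mean of M-values (TMM), and tests are edgeR's quasi-likelihood test with Benjamini-Hochberg adjustment over the 12612 genes tested, called at an adjusted p under 0.05.

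The libraries held hepatocyte markers at 113775 to 124301 CPM in the wild-type-labelled and 75971 to 80260.0 CPM in the knockout-labelled libraries, with 5 of 8 markers lower and 1 higher. Markers of cholangiocytes summed to 19.8 to 26.6 CPM in the wild-type-labelled and 77.9 to 89.4 CPM in the knockout-labelled libraries (9 of 9 tested higher). Those of monocytes and macrophages summed to 105 to 185 against 365 to 369 CPM (7 of 8 tested higher). Those of stellate cells and fibroblasts summed to 232 to 357 against 537 to 657 CPM (7 of 10 tested higher). Dividing-cell markers summed to 2.80 to 4.04 against 6.50 to 13.0 CPM (3 of 5 tested higher). Endothelial markers summed to 176 to 204 against 192 to 205 CPM (2 of 6 tested higher, 1 lower). The shares called over all genes tested were 20.9% higher and 16.3% lower. Markers of skeletal muscle were low in every library, at 1.02 to 1.39 against 1.19 to 1.26 CPM. So were those of heart muscle (0.381 to 1.02 against 0.645 to 1.71 CPM) and nerve (0.572 to 1.70 against 1.01 to 1.88 CPM). Platelet markers (3.05 to 3.96 against 2.32 to 3.87 CPM) and lymphocyte markers (2.61 to 3.66 against 3.02 to 4.17 CPM) were low as well. The 1 platelet marker tested was called lower. Mesothelial markers were low too, at 0.702 to 0.826 against 2.06 to 4.02 CPM, but the groups did not overlap. The 1 mesothelial marker tested was called higher. Nppa, Uchl1, Stmn2, Gap43 and Gp1ba were at 0 in the wild-type-labelled libraries. Of the pancreas markers, Prss2, Pnlip and Cel were at or near 0 in every library, and the sum of 16.0 to 19.8 against 5.30 to 5.80 CPM was almost all Cela1. In bulk tissue, a change in the number of cells of a type and a change in RNA per cell cannot be told apart, and the part of these cell types in the results below was not tested.

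Upstream sequence was taken from RefSeq (GRCm38.p6) for 54 of the 64 members, as 250 bases before each annotated start. Below are 4 of these windows, each ending before the first base that an annotated exon covers. Tubb4b, which fell, and Myo5c, which rose, are shown for their CCAAT boxes, the element bound by the factor NF-Y, searched as CCAAT or ATTGG. Tuba8, the alpha-tubulin with the highest fold change, is shown because the same search finds none. Myl9, a smooth-muscle light chain, is shown for its CArG box, the element bound by serum response factor. Capitals mark the matches, and each run reads 5′ to 3′ along the gene's strand. Tubb4b lies at chr2:25224703-25224952 on the minus strand, Myo5c at chr9:75231764-75232013 on the plus strand, Tuba8 at chr6:121210484-121210695 on the plus strand and Myl9 at chr2:156775214-156775419 on the plus strand.
Tubb4b: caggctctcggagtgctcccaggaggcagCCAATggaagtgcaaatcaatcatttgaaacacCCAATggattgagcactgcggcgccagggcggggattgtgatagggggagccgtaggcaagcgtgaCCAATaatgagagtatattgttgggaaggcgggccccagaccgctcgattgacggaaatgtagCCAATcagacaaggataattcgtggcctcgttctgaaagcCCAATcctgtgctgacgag
Myo5c: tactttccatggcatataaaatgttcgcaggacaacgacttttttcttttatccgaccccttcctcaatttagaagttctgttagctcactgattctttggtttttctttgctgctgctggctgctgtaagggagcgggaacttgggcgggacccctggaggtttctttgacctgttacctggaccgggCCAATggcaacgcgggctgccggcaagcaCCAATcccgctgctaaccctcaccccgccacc
Tuba8: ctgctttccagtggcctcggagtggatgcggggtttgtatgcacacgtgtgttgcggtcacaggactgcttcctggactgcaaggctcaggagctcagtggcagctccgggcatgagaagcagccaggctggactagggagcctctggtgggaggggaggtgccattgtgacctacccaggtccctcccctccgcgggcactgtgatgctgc
Myl9: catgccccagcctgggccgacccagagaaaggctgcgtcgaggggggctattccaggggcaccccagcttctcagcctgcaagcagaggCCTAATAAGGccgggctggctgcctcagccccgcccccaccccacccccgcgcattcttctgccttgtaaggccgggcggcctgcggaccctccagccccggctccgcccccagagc

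Tubb4b held 5 CCAAT matches in its window, at 221, 188, 122, 59 and 19 bases before the start, and Myo5c held 2, at 61 and 32 bases. Among the 37 tested members with a window, CCAAT or ATTGG was found for 7 of the 20 that rose, 1 of the 2 that fell and 6 of the 15 that did not pass, beside 37.5% of the 27025 genes with a window. The CArG box was found for none of the 20 that rose, none of the 2 that fell and 3 of the 15 that did not pass, which are Myl9, Myl6 and Myo1e; it was found for 1.62% of all genes. The GC box, searched as GGGCGG or CCGCCC, was found for 16 of the 20, both of the 2 and 10 of the 15, beside 35.4% of all genes, expressed or not. Letters in a window are a description and not a measured binding site.

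Of the 64 members, 45 passed the filter on low counts. Of those 45, 25 rose in the knockout-labelled libraries, 3 fell and 17 did not pass the test. Over all genes tested, 20.9% were called higher and 16.3% lower, while among the tested members 55.6% were higher and 6.67% lower. A fold change of 2 or more upward was called for 12 members (26.7%), beside 11.1% of all genes, and no member was called as much as 2-fold lower. In 33 of the 45 the groups did not overlap in CPM (73.3%), beside 51.3% of all genes. The median log2 fold change of the tested members was 0.45 and that of all tested genes 0.01. Of the 45, 6 passed the filter with fewer than 3 wild-type-labelled libraries at its minimum (Myo5a, Myo5c, Myo7b, Myo15b, Tubb2b and Myl4), and 5 of those 6 rose. Of the other 39, 20 rose and 3 fell. The 5 that rose with fewer than 3 wild-type-labelled libraries at the minimum are all among the 12 called at least 2-fold higher. They are also among the 33 without overlap. Both shares thus include genes that passed the filter through high knockout-labelled counts. Scaling by total counts instead of TMM moved the median of all genes upward by 0.29 on the log2 scale. Under that scaling 32 members were called higher and 1 lower, and of all genes 47.1% were called higher and 2.62% lower.

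**Figure D1:**
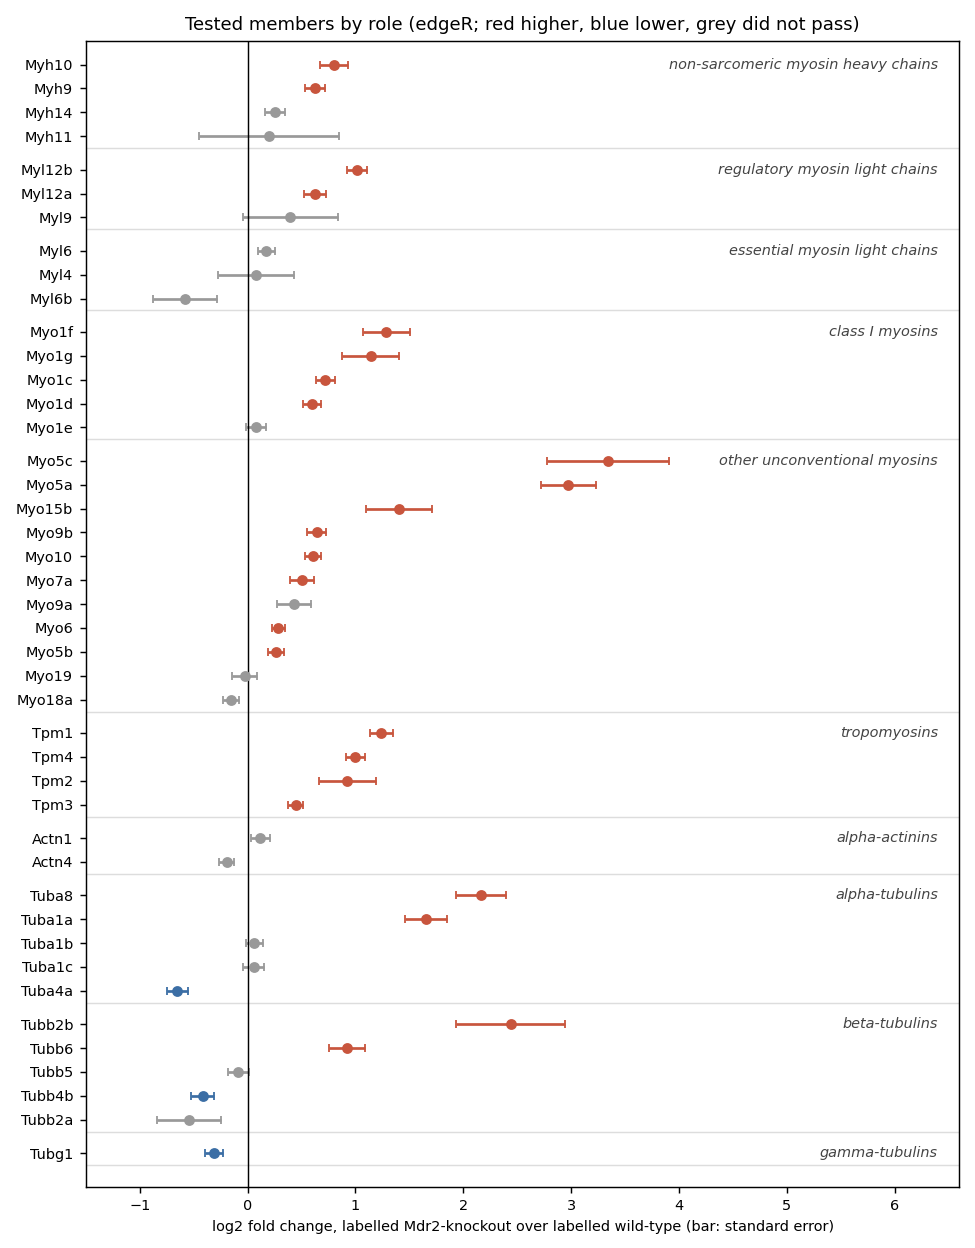
Points give the log2 fold change of the knockout-labelled over the wild-type-labelled libraries for 43 of the 45 tested members, grouped by role, with bars for the standard error. Red members rose, blue members fell and grey members did not pass; the 4 tropomyosins are all red, while the alpha-tubulins range from -0.65 for Tuba4a to 2.17 for Tuba8.

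Among the heavy chains of non-muscle and smooth-muscle myosin II, Myh9 and Myh10 rose, and Myh14 and Myh11 did not pass. Myh9, the heavy chain of non-muscle myosin IIA, stood at 174, 169.9 and 200.5 CPM in the wild-type-labelled and 284, 301 and 255 CPM in the knockout-labelled libraries. All 3 knockout-labelled libraries lay above all 3 wild-type-labelled ones, with a log2 fold change of 0.62 ± 0.09 (SE; adjusted p = 0.000771). Myh10, the heavy chain of non-muscle myosin IIB, stood at 26.4, 35.7 and 35.5 CPM in the wild-type-labelled and 55.9, 63.6 and 50.9 CPM in the knockout-labelled libraries. The groups again did not overlap, and the log2 fold change was 0.80 ± 0.13 (SE; adjusted p = 0.00172). Myh14, the heavy chain of non-muscle myosin IIC, stood at 20.4, 18.5 and 18.6 CPM in the wild-type-labelled and 24.6, 22.9 and 20.9 CPM in the knockout-labelled libraries. Its groups did not overlap either, but its difference was small, at 0.25 ± 0.09 (SE; adjusted p = 0.0558). It was called higher in 4 alternatives: without knockout-labelled replicate 3 the adjusted p was 0.0388, with the stricter filter 0.0467, with total-count scaling 0.00115 and with upper-quartile scaling 0.0283.

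Per length, Myh9 was the main heavy chain in every library. Its deposited FPKM, a level scaled by transcript length and library size, was 22.0 ± 2.02 FPKM against 41.6 ± 3.28 FPKM (mean ± SD, n = 3 per group). These FPKM do not carry the TMM scaling, under which Myh9 was 1.54-fold higher, so the group difference differs between the 2 scales. The share of Myh9 in the summed FPKM of the 4 heavy chains was 78.2% ± 2.73 in the wild-type-labelled and 79.0% ± 0.424 in the knockout-labelled libraries (SD, n = 3 each). Myh10 made up 11.2% ± 1.45 in the wild-type-labelled and 12.8% ± 0.524 in the knockout-labelled libraries (SD, n = 3 each), and Myh14 8.63% ± 1.04 in the wild-type-labelled and 6.70% ± 0.436 in the knockout-labelled libraries (SD, n = 3 each). Shares compare genes within a library and do not depend on library scaling. With 3 samples against 3 the smallest two-sided exact permutation p is 0.1, which the share of Myh14 reached and those of Myh9 (p = 1) and Myh10 (p = 0.3) did not. Over the 58 shares tested in 9 families, 34 reached that smallest p, with a Benjamini-Hochberg adjusted value of 0.171, so no share passes on its own.

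The regulatory light chains that pair with non-muscle myosin II are Myl12a and Myl12b, and both rose. Myl12b stood at 52.8, 47.1 and 56.6 CPM in the wild-type-labelled and 105, 116 and 94.8 CPM in the knockout-labelled libraries, with a log2 fold change of 1.01 ± 0.09 (SE; adjusted p = 4.48e-05). Myl12a stood at 56.7, 49.7 and 55.1 CPM in the wild-type-labelled and 82.1, 95.1 and 72.4 CPM in the knockout-labelled libraries, with a log2 fold change of 0.63 ± 0.10 (SE; adjusted p = 0.00109). Neither gene's groups overlapped. Within the regulatory light chains, the share of Myl12b was 64.9% ± 1.37 in the wild-type-labelled and 71.0% ± 0.483 in the knockout-labelled libraries (SD, n = 3 each). The share of Myl12a was 33.1% ± 1.20 in the wild-type-labelled and 27.5% ± 0.885 in the knockout-labelled libraries (SD, n = 3 each), each with an exact permutation p of 0.1. The genes are neighbours on chromosome 17 (GRCm38: Myl12b at 70973133 to 70990890, Myl12a at 70993656 to 71002878). The annotation holds a second Myl12b gene model, at 70974119 to 71002208, that overlaps most of Myl12a. In addition, 16.2% of the 50-base windows in Myl12a transcripts also occur in Myl12b transcripts. How reads shared by such copies were assigned is not given in the sources used here, so the split between the pair is uncertain.

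Myl6, the essential light chain of non-muscle and smooth-muscle myosin II, had the highest FPKM of all members and did not pass. It stood at 143, 158 and 153 CPM in the wild-type-labelled and 165, 184 and 163 CPM in the knockout-labelled libraries. The groups did not overlap but lay close, with a log2 fold change of 0.17 ± 0.08 (SE; adjusted p = 0.108), and it was called higher with total-count scaling, at 0.47 (adjusted p = 0.000728), and with upper-quartile scaling, at 0.23 (0.044). Myl6 held over 99% of the summed FPKM of the essential light chains in each library, with shares of 99.1% ± 0.0317 in the wild-type-labelled and 99.5% ± 0.0701 in the knockout-labelled libraries (SD, n = 3 each). Myl6b, a related light chain next to it on chromosome 10, stood at 1.40, 1.53 and 1.33 CPM in the wild-type-labelled and 0.794, 1.16 and 0.883 CPM in the knockout-labelled libraries. The knockout-labelled libraries were all below the wild-type-labelled ones, but at 16 to 24 counts per library the log2 difference of -0.58 ± 0.30 (SE; adjusted p = 0.148) did not pass. Myl4, the atrial and embryonic light chain, had 9, 14 and 11 counts in the wild-type-labelled and 14, 16 and 15 counts in the knockout-labelled libraries, which overlap (log2 fold change 0.08 ± 0.35 SE, adjusted p = 0.886). None of the 3 tested essential light chains passed in edgeR, 0 were at an unadjusted p under 0.05, and DESeq2 and limma-voom called 0.

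**Figure D2:**
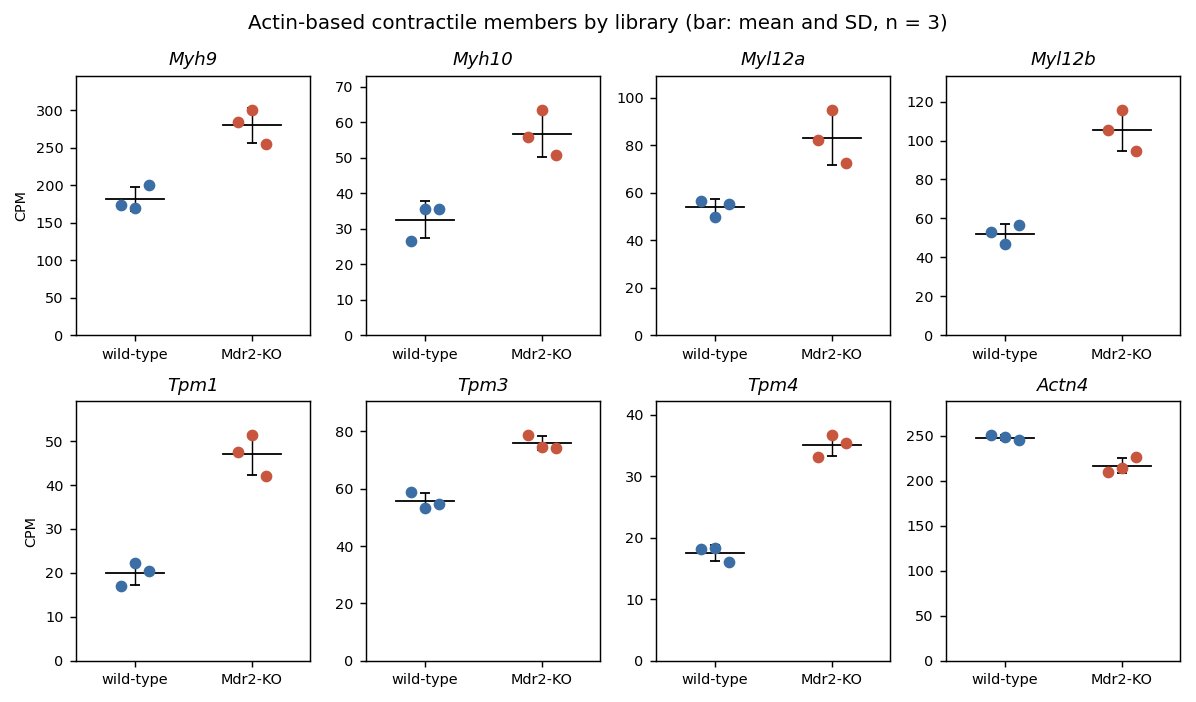
Each panel shows CPM in the 3 wild-type-labelled (blue) and 3 knockout-labelled (red) libraries for one gene, with the mean and SD as black bars. Myh9, Myh10, Myl12a, Myl12b, Tpm1, Tpm3 and Tpm4 have no overlap and are higher in the knockout-labelled libraries, while Actn4, which did not pass, lies at 245 to 251 CPM in the wild-type-labelled and 210.0 to 227 CPM in the knockout-labelled libraries.

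Neither smooth-muscle form passed the test. Myh11, the smooth-muscle myosin heavy chain, stood at 1.46, 9.00 and 3.85 CPM in the wild-type-labelled and 4.66, 4.18 and 7.59 CPM in the knockout-labelled libraries. Myl9, the light chain shared by smooth muscle and contractile non-muscle cells, stood at 0.954, 3.00 and 1.64 CPM in the wild-type-labelled and 1.84, 1.81 and 3.74 CPM in the knockout-labelled libraries. Both genes overlapped between groups and varied most within them: wild-type-labelled replicate 2 and knockout-labelled replicate 3 were the highest of their groups and wild-type-labelled replicate 1 the lowest of all. The log2 fold changes were 0.20 ± 0.65 (SE; adjusted p = 0.842) for Myh11 and 0.40 ± 0.44 (SE; adjusted p = 0.514) for Myl9. With 1 library left out, Myh11 ran from -0.24 (without wild-type-labelled replicate 1) to 1.03 (without wild-type-labelled replicate 2), and Myl9 from -0.03 (without knockout-labelled replicate 3) to 0.91 (without wild-type-labelled replicate 2), so neither direction is settled. Other smooth-muscle genes had the same order of libraries. Acta2, smooth-muscle actin, stood at 1.27, 5.68 and 2.84 CPM in the wild-type-labelled and 2.63, 3.42 and 6.13 CPM in the knockout-labelled libraries. Tagln, transgelin, stood at 1.91, 5.36 and 2.71 CPM in the wild-type-labelled and 4.61, 3.27 and 4.88 CPM in the knockout-labelled libraries. Both were highest in wild-type-labelled replicate 2 and knockout-labelled replicate 3, as was Lmod1 (leiomodin 1), so that 5 of the 10 tested smooth-muscle genes had this order, a pattern chosen after its values were seen. Of the list of smooth-muscle contractile genes, 4 of 8 tested rose and none fell, or 3 of the 6 that reached the count minimum in every wild-type-labelled library. Those that rose included Des, the intermediate filament desmin (log2 fold change 0.61, adjusted p = 0.0176), Smtn, smoothelin (0.62, adjusted p = 0.0209), and Synpo2 (1.38, adjusted p = 0.0366). The summed smooth-muscle markers (2 of 3 tested higher) were 4.64 to 6.83 CPM in the wild-type-labelled and 7.94 to 12.4 CPM in the knockout-labelled libraries. Their part in the values of Myh11 and Myl9 was not tested.

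**Figure D3:**
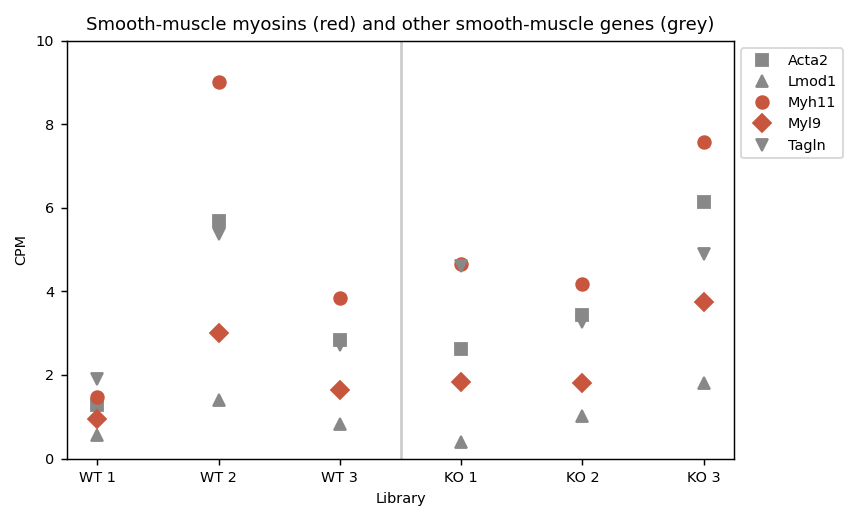
CPM of the smooth-muscle myosins Myh11 and Myl9 (red) and of Acta2, Lmod1 and Tagln (grey) in each library. All 5 genes are highest in wild-type replicate 2 within the wild-type-labelled group and in replicate 3 within the knockout-labelled group, and the groups overlap.

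Sarcomeric members were close to absent. Myh3 had no count in any library, and Myh7, Myh13 and Myh15 had 1 count each over the 6 libraries. Myl1 had 1 count, Myl3 had 2, and Myl7, the atrial regulatory light chain, had 3 counts in the wild-type-labelled and 5 in the knockout-labelled libraries. Actn2 and Actn3, the sarcomeric alpha-actinins, had 1 and 2 counts. These were not tested, and no fold change can be read from them.

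All 4 tropomyosin genes rose, the only family in which every tested member did so with more than 1 member tested. Tpm1 stood at 17.0, 22.2 and 20.4 CPM in the wild-type-labelled and 47.6, 51.3 and 42.1 CPM in the knockout-labelled libraries. Its log2 fold change was 1.24 ± 0.11 (SE; adjusted p = 3.23e-05), the largest of the family. Tpm4 stood at 18.1, 18.4 and 16.0 CPM in the wild-type-labelled and 33.1, 36.7 and 35.4 CPM in the knockout-labelled libraries, a log2 fold change of 1.00 ± 0.09 (SE; adjusted p = 2.71e-05). In both genes every knockout-labelled library lay above every wild-type-labelled one by a wide margin. Tpm3 stood at 58.8, 53.4 and 54.8 CPM in the wild-type-labelled and 78.6, 74.6 and 74.2 CPM in the knockout-labelled libraries, a smaller rise of 0.45 ± 0.07 (SE; adjusted p = 0.000814). Tpm2, the least abundant, stood at 1.46, 1.85 and 2.84 CPM in the wild-type-labelled and 3.62, 3.47 and 4.62 CPM in the knockout-labelled libraries. Its groups did not overlap and it rose by 0.93 ± 0.26 (SE; adjusted p = 0.0199), a call that was lost without wild-type-labelled replicate 1 (adjusted p = 0.0664), without wild-type-labelled replicate 2 (0.071) or without knockout-labelled replicate 3 (0.068).

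In the wild-type-labelled libraries Tpm3 and Tpm4 were near level per length, at 40.3% ± 2.33 and 38.6% ± 2.19 of the family's summed FPKM (SD, n = 3). In the knockout-labelled libraries Tpm4 led with 42.8% ± 1.65, followed by Tpm3 with 30.5% ± 1.47 and Tpm1 with 22.8% ± 1.74, which had 17.4% ± 2.20 in the wild-type-labelled group. Tpm1, Tpm3 and Tpm4 shares each had an exact permutation p of 0.1, and the share of Tpm2 had p = 0.8. A gene-level count sums the muscle and cytoplasmic isoforms that each tropomyosin gene makes, so isoforms were not analysed here. Of the Tpm3 transcript windows of 50 bases, 23.2% also occur in the related copy Tpm3-rs7.

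Neither cytoplasmic alpha-actinin passed in edgeR, 1 having an unadjusted p under 0.05. Actn4, the main form per length with 85.7% ± 1.38 in the wild-type-labelled and 82.8% ± 1.25 in the knockout-labelled libraries (SD, n = 3 each) of the alpha-actinin FPKM, stood at 251, 249 and 245 CPM in the wild-type-labelled and 210.0, 214 and 227 CPM in the knockout-labelled libraries. The groups did not overlap, but the log2 difference was only -0.19 ± 0.07 (SE; adjusted p = 0.0569). It was called lower with relative log expression (RLE) scaling (adjusted p = 0.0467), with DESeq2 (0.0241) and with limma-voom (0.0459), and its sign turned to 0.10 with total-count scaling. Actn1 stood at 30.6, 35.6 and 37.4 CPM in the wild-type-labelled and 36.1, 40.5 and 36.1 CPM in the knockout-labelled libraries, overlapping groups with a log2 fold change of 0.12 ± 0.09 (SE; adjusted p = 0.328). Total-count scaling called it higher, at 0.41 (adjusted p = 0.00299).

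Among the class I myosins, single-headed motors that link membrane to actin, 4 of 6 tested rose. Myo1c, which acts in exocytosis and membrane tension, stood at 42.7, 46.4 and 42.7 CPM in the wild-type-labelled and 63.4, 80.4 and 73.5 CPM in the knockout-labelled libraries, a log2 fold change of 0.72 ± 0.09 (SE; adjusted p = 0.000278). Myo1d stood at 16.7, 15.4 and 15.6 CPM in the wild-type-labelled and 24.0, 23.8 and 24.4 CPM in the knockout-labelled libraries, a log2 fold change of 0.60 ± 0.08 (SE; adjusted p = 0.000473). In both the groups were apart and the spread within a group was small. Myo1f and Myo1g are known mainly from blood-derived immune cells. Myo1f stood at 2.54, 3.07 and 4.98 CPM in the wild-type-labelled and 8.68, 9.11 and 8.11 CPM in the knockout-labelled libraries, a rise of 1.29 ± 0.22 (SE; adjusted p = 0.00152). Myo1g stood at 1.59, 2.04 and 1.01 CPM in the wild-type-labelled and 3.67, 3.32 and 3.27 CPM in the knockout-labelled libraries, a rise of 1.14 ± 0.26 (SE; adjusted p = 0.00742). These were the largest log2 fold changes in the class. Monocyte and macrophage markers summed to 105 to 185 CPM in the wild-type-labelled and 365 to 369 CPM in the knockout-labelled libraries. Sums for cholangiocytes and for stellate cells and fibroblasts were also higher in the latter, as given above. Within the wild-type-labelled group, the monocyte and macrophage sum was highest in replicate 3, where Myo1f was highest and Myo1g lowest. T and B lymphocyte markers summed to 2.61 to 3.66 CPM in the wild-type-labelled and 3.02 to 4.17 CPM in the knockout-labelled libraries. The part of immune cells in the Myo1f and Myo1g values was not tested.

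Myo1e, which acts in endocytosis and cell adhesion, stood at 69.1, 79.5 and 87.3 CPM in the wild-type-labelled and 76.5, 88.9 and 84.1 CPM in the knockout-labelled libraries. The groups overlapped (log2 fold change 0.08 ± 0.09 SE, adjusted p = 0.526), and only total-count scaling called it, at 0.38 (adjusted p = 0.00587). Myo1a, the brush-border myosin I of intestine, had 1 count in the wild-type-labelled and 5 in the knockout-labelled libraries, and Myo1h had 0 and 4.

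The other unconventional myosins held the largest fold changes of the whole set, in genes that were barely counted in the wild-type-labelled libraries. Myo5a, a processive motor for vesicles and granules, stood at 0.509, 0.575 and 0.883 CPM in the wild-type-labelled and 4.81, 5.34 and 5.46 CPM in the knockout-labelled libraries. This is 7.85-fold higher, a log2 fold change of 2.97 ± 0.25 (SE; adjusted p = 2.71e-05). Myo5c, a class V myosin of glandular and other epithelia, had 2, 5 and 0 counts in the wild-type-labelled and 28, 32 and 33 counts in the knockout-labelled libraries. Its fitted log2 fold change was 3.34 ± 0.57 (SE; adjusted p = 0.00145). Myo7b, a brush-border myosin that holds microvilli together in gut and kidney, had 1, 0 and 0 counts against 22, 31 and 16. Scaled to library size that is a ratio of 55.0, with an exact 95% interval of 9.55 to 2203 that covers counting error only, and edgeR's adjusted p was 0.000571. In each of these genes, every knockout-labelled library stood above every wild-type-labelled library. Myo5c and Myo7b passed the filter through the knockout-labelled libraries alone, with no wild-type-labelled library at its minimum. For both, the separation follows from how they entered the test and adds no support.

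Myo15b was the other low-count gene that rose, with 13, 14 and 9 counts against 35, 39 and 46 and a log2 fold change of 1.40 ± 0.31 (SE; adjusted p = 0.00554). Cholangiocyte markers differed in the same libraries: Epcam averaged 1.12 CPM in the wild-type-labelled and 12.0 CPM in the knockout-labelled libraries, and Krt19 averaged 0.910 and 10.6 CPM. No cholangiocyte marker was at 0 in all wild-type-labelled libraries. The part of duct cells in Myo5a, Myo5c, Myo7b and Myo15b was not tested.

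The better-counted motors that rose had smaller fold changes. Myo10, the filopodial myosin, stood at 38.7, 38.9 and 35.3 CPM in the wild-type-labelled and 56.1, 60.5 and 55.5 CPM in the knockout-labelled libraries, a log2 fold change of 0.61 ± 0.07 (SE; adjusted p = 0.000201). Myo9b, a motor that also carries a GTPase-activating domain, stood at 44.9, 47.1 and 45.3 CPM in the wild-type-labelled and 68.7, 80.0 and 65.2 CPM in the knockout-labelled libraries, a log2 fold change of 0.64 ± 0.08 (SE; adjusted p = 0.00035). The groups of both genes were clearly apart. Myo7a, a motor known from hair cells and retinal pigment epithelium, stood at 17.4, 19.4 and 20.6 CPM in the wild-type-labelled and 23.6, 30.1 and 27.9 CPM in the knockout-labelled libraries, a log2 fold change of 0.51 ± 0.11 (SE; adjusted p = 0.00517). Myo6, the motor that moves to the minus end of actin, rose by 0.29 ± 0.06 (SE; adjusted p = 0.00588). Myo5b, which carries recycling vesicles to the bile canaliculus, rose by 0.26 ± 0.07 (SE; adjusted p = 0.019), a call that was lost with DESeq2 (adjusted p = 0.0854), without wild-type-labelled replicate 2 (0.0549) or 3 (0.0658), and without knockout-labelled replicate 2 (0.0595) or 3 (0.0619).

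Myo18a, which acts at the Golgi, had the highest FPKM of this group and did not pass. It stood at 137, 145 and 138 CPM in the wild-type-labelled and 118, 129 and 132 CPM in the knockout-labelled libraries. The knockout-labelled libraries were all lower, by a log2 difference of -0.15 ± 0.07 (SE; adjusted p = 0.119), and with total-count scaling the value was 0.14 (adjusted p = 0.13). Its share of the group's summed FPKM was 35.1% ± 0.600 in the wild-type-labelled and 26.7% ± 1.07 in the knockout-labelled libraries (SD, n = 3 each), with an exact permutation p of 0.1. Myo19, the mitochondrial myosin, had a log2 difference of -0.03 ± 0.11 (SE; adjusted p = 0.872) that turned to 0.27 with total-count scaling and to 0.03 with upper-quartile scaling. Myo9a had 0.43 ± 0.16 (SE; adjusted p = 0.0554). It was called higher with total-count scaling (adjusted p = 0.00343), upper-quartile scaling (0.0405), limma-voom (0.04996) and no low-count filter (0.0497), and without wild-type-labelled replicate 3 (0.0142) or knockout-labelled replicate 3 (0.0464).

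Rare members of the same class were left out of the test. Myo16 had 0, 0 and 1 counts against 7, 5 and 4, a ratio of 12.8 with an exact 95% counting interval of 1.98 to 535. Myo18b had 1, 0 and 0 counts against 5, 4 and 2, a ratio of 8.77 with an interval of 1.27 to 377. Myo15 had 5 counts against 11, and Myo3b none. With no low-count filter, Myo16 passed at an adjusted p of 0.0404 and Myo18b did not, at 0.111.

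**Figure D4:**
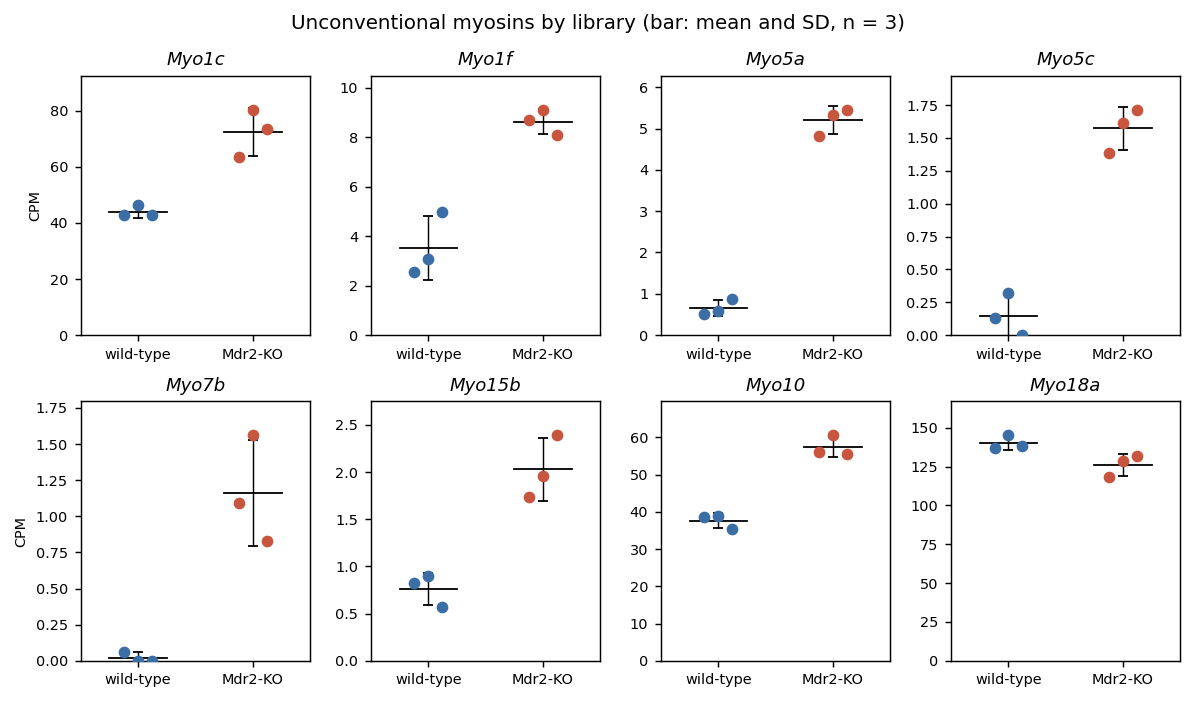
CPM of 8 unconventional myosins in the wild-type-labelled (blue) and knockout-labelled (red) libraries, with mean and SD. Myo5a, Myo5c, Myo7b and Myo15b are all below 1 CPM in the wild-type-labelled libraries and do not overlap with the knockout-labelled libraries, and Myo18a, which did not pass, lies slightly lower in the latter.

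Tubulins moved in both directions. Of the 5 alpha-tubulin genes, Tuba8 and Tuba1a rose, Tuba4a fell, and Tuba1b and Tuba1c did not pass. Tuba8, an alpha-tubulin with a divergent sequence, stood at 2.61, 5.56 and 4.04 CPM in the wild-type-labelled and 15.2, 20.7 and 18.9 CPM in the knockout-labelled libraries, or 4.48-fold higher with a log2 fold change of 2.17 ± 0.24 (SE; adjusted p = 0.000307). Tuba1a, best known from developing neurons, stood at 1.72, 2.17 and 1.77 CPM in the wild-type-labelled and 6.30, 5.24 and 6.29 CPM in the knockout-labelled libraries, a log2 fold change of 1.65 ± 0.20 (SE; adjusted p = 0.000185). Neither gene's groups overlapped. Tuba4a, the leading alpha-tubulin per length, stood at 229, 189 and 182 CPM in the wild-type-labelled and 123, 123 and 136 CPM in the knockout-labelled libraries. Every knockout-labelled library was below every wild-type-labelled one, with a log2 difference of -0.65 ± 0.10 (SE; adjusted p = 0.00074). The transcripts of Tuba4a overlap those of Stk16: 34.6% of its 50-base windows, on either strand, occur in Stk16 transcripts. Stk16 stood at 90.9, 86.2 and 76.1 CPM in the wild-type-labelled and 52.6, 51.7 and 59.0 CPM in the knockout-labelled libraries, a log2 difference of -0.63 ± 0.09 (SE; adjusted p = 0.000405), and without strand information reads from the overlap cannot be told apart.

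Neither Tuba1b nor Tuba1c passed. Tuba1b stood at 25.1, 23.7 and 22.8 CPM in the wild-type-labelled and 25.8, 24.1 and 24.7 CPM in the knockout-labelled libraries, a log2 fold change of 0.06 ± 0.08 (SE; adjusted p = 0.579). Tuba1c stood at 55.7, 45.3 and 46.4 CPM in the wild-type-labelled and 45.8, 55.6 and 51.9 CPM in the knockout-labelled libraries, a log2 fold change of 0.06 ± 0.10 (SE; adjusted p = 0.684). The groups of both overlapped, and only total-count scaling called them higher, at 0.35 (adjusted p = 0.00586) and 0.35 (0.0176). Tuba1a, Tuba1b and Tuba1c lie within a stretch of chromosome 15 (GRCm38: Tuba1b from 98931425, Tuba1a from 98949837, Tuba1c from 99029891), and 75.5%, 75.1% and 52.7% of their 50-base windows occur in transcripts of another gene. Values of these copies are uncertain to the extent that the counting split or dropped shared reads.

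The isotypes were also compared as parts of the alpha-tubulin pool. Tuba4a made up 52.1% ± 1.56 in the wild-type-labelled and 34.8% ± 1.68 in the knockout-labelled libraries (SD, n = 3 each) of the summed alpha-tubulin FPKM. Tuba8 made up 2.94% ± 1.22 in the wild-type-labelled and 13.5% ± 1.54 in the knockout-labelled libraries (SD, n = 3 each), and Tuba1a 1.30% ± 0.242 in the wild-type-labelled and 4.26% ± 0.553 in the knockout-labelled libraries (SD, n = 3 each). Tuba1c, second in both groups, made up 27.0% ± 0.981 in the wild-type-labelled and 29.4% ± 1.77 in the knockout-labelled libraries (SD, n = 3 each), and Tuba1b 16.6% ± 0.775 in the wild-type-labelled and 18.1% ± 1.51 in the knockout-labelled libraries (SD, n = 3 each). Each of the 5 shares had no overlap between groups and an exact permutation p of 0.1, the smallest possible. Shares within a pool are not independent: as Tuba4a takes less, the others take more.

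**Figure D5:**
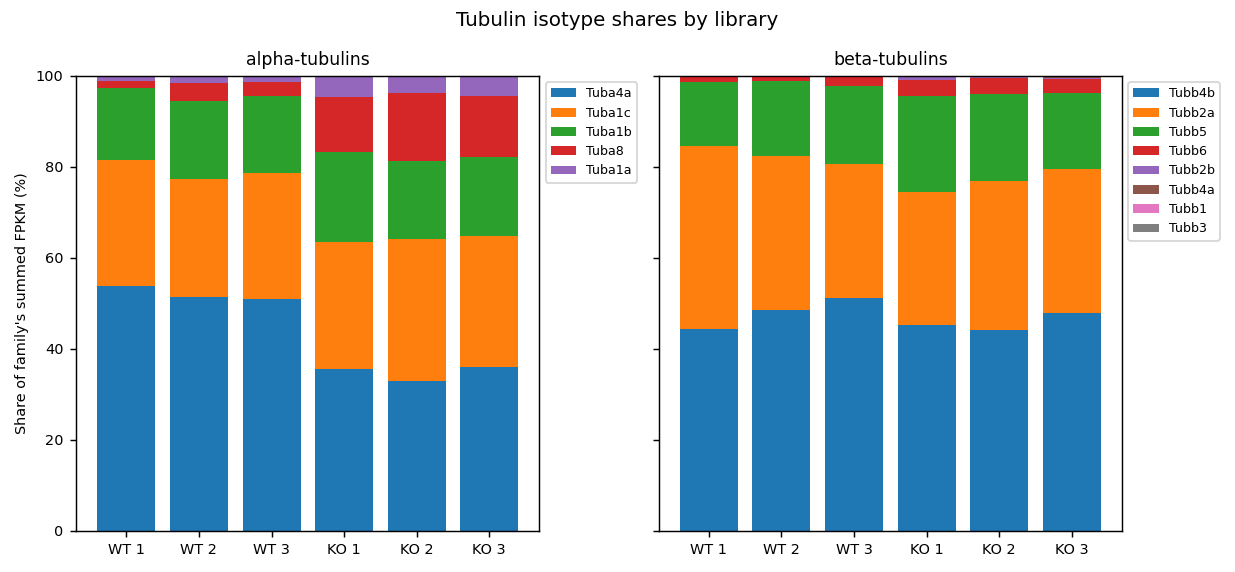
Stacked bars give each isotype's share of the summed deposited FPKM of the alpha-tubulins (left) and beta-tubulins (right) in each library. Tuba4a averages 52.1% in the wild-type-labelled and 34.8% in the knockout-labelled libraries and Tuba8 2.94% and 13.5%, while Tubb4b has the largest beta-tubulin share of every library.

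Among the beta-tubulins, Tubb6 and Tubb2b rose, Tubb4b fell, and Tubb2a and Tubb5 did not pass. Tubb6, a broadly expressed isotype, stood at 4.77, 3.38 and 4.48 CPM in the wild-type-labelled and 8.09, 8.51 and 7.38 CPM in the knockout-labelled libraries, a log2 fold change of 0.92 ± 0.17 (SE; adjusted p = 0.00208). Tubb2b, best known from neurons, had 4, 2 and 4 counts in the wild-type-labelled and 35, 16 and 19 counts in the knockout-labelled libraries, a log2 fold change of 2.44 ± 0.50 (SE; adjusted p = 0.00428). It passed the filter through the knockout-labelled libraries alone, with no wild-type-labelled library at its minimum. Tubb2b averaged 0.211 CPM in the wild-type-labelled and 1.18 CPM in the knockout-labelled libraries. The sums of the nerve markers were 0.572 to 1.70 against 1.01 to 1.88 CPM. The part of nerve cells in the Tubb2b values was not tested. Of the 50-base windows of Tubb2b transcripts, 31.3% also occur in Tubb2a, which had 1053 to 2218 counts per library, so the few Tubb2b counts are uncertain.

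Tubb4b, the leading beta-tubulin per length, stood at 154, 134 and 115 CPM in the wild-type-labelled and 93.9, 101 and 107 CPM in the knockout-labelled libraries. The groups did not overlap and the log2 difference was -0.42 ± 0.10 (SE; adjusted p = 0.0109). With total-count scaling it was -0.12 and no longer passed (adjusted p = 0.362). Tubb2a, the second by FPKM, stood at 141, 93.3 and 66.4 CPM in the wild-type-labelled and 60.8, 74.8 and 70.8 CPM in the knockout-labelled libraries. Wild-type-labelled replicate 1 was far above the rest and the groups overlapped, and the log2 difference of -0.54 ± 0.30 (SE; adjusted p = 0.218) became -0.23 (adjusted p = 0.319) without that library. Without wild-type-labelled replicate 3, the lowest of its group, it was called lower at -0.78 (adjusted p = 0.0272). Of the Tubb2a windows, 49.6% occur in transcripts of another gene, 45.6% in Tubb2b. Values of Tubb4b and Tubb2a are thus uncertain to the extent that the counting split or dropped shared reads. Tubb5, the beta-tubulin of dividing and many other cells, stood at 80.3, 74.6 and 64.5 CPM in the wild-type-labelled and 72.7, 72.3 and 61.7 CPM in the knockout-labelled libraries, overlapping groups with a log2 difference of -0.09 ± 0.10 (SE; adjusted p = 0.511) that turned to 0.21 with total-count scaling.

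Wild-type-labelled replicate 1 was the highest of its group for 8 of the 11 tested tubulins, a count made after the values were seen. Those were Tuba1b, Tuba1c, Tuba4a, Tubb2a, Tubb2b, Tubb4b, Tubb5 and Tubb6. In the beta-tubulin pool, Tubb4b made up 48.0% ± 3.44 in the wild-type-labelled and 45.8% ± 1.91 in the knockout-labelled libraries (SD, n = 3 each), and Tubb2a 34.5% ± 5.52 in the wild-type-labelled and 31.1% ± 1.79 in the knockout-labelled libraries (SD, n = 3 each). Both shares overlapped between groups (exact permutation p = 0.4 each). Tubb6 made up 1.40% ± 0.372 in the wild-type-labelled and 3.34% ± 0.279 in the knockout-labelled libraries (SD, n = 3 each), and Tubb5 15.9% ± 1.74 in the wild-type-labelled and 19.0% ± 2.23 in the knockout-labelled libraries (SD, n = 3 each), with exact permutation p-values of 0.1 and 0.2.

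The rarest tubulins were not tested. Tubb1, the platelet isotype, had 2, 4 and 2 counts against 3, 0 and 4. Tubb3, a neuronal isotype, had 1, 0 and 0 against 0, 2 and 8, with 8 of its 10 knockout-labelled counts in replicate 3. Tubb4a had 0, 0 and 8 against 6, 13 and 9, with all wild-type-labelled counts in replicate 3.

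Of the gamma-tubulins, which sit in the ring complex that nucleates microtubules, Tubg1 stood at 38.0, 35.7 and 40.0 CPM in the wild-type-labelled and 28.0, 32.5 and 31.4 CPM in the knockout-labelled libraries. The groups did not overlap, and Tubg1 fell by 0.31 ± 0.08 on the log2 scale (SE; adjusted p = 0.015). With total-count scaling the difference was -0.02 (adjusted p = 0.89). Tubg2 had no count in the wild-type-labelled libraries and 3, 2 and 7 counts in the knockout-labelled libraries, which, with the wild-type-labelled group set to a floor of 3 counts in all, is at least 3.19-fold higher. It was not tested, and with no low-count filter its adjusted p was 0.0413. None of the 8 other ring-complex genes passed in edgeR, 0 were at an unadjusted p under 0.05, and DESeq2 and limma-voom called 0. The 4 with the smallest p were Tubgcp5 (log2 fold change 0.25, adjusted p = 0.204), Tubgcp4 (-0.13, adjusted p = 0.265), Tubgcp6 (-0.13, adjusted p = 0.428) and Mzt2 (-0.11, adjusted p = 0.627).

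Genes that act on these proteins were counted from lists chosen with earlier results of these data known. The counts are thus a description and not a test against all genes. They are to be read beside the shares of all tested genes, 20.9% called higher and 16.3% called lower. Among the actins themselves, 1 of 3 tested rose: cytoplasmic gamma-actin Actg1 (1.02, adjusted p = 0.00877), while beta-actin Actb had a log2 fold change of 0.18 (adjusted p = 0.118). Of 16 tested genes that set myosin light chain phosphorylation, 2 rose (12.5%) and 1 fell (6.25%), both below those shares. Rhoc, a small GTPase (1.02, adjusted p = 0.000728), and the kinase Rock2 (0.72, adjusted p = 0.00126) rose, and the kinase Dapk3 fell (-0.32, adjusted p = 0.0146). The phosphatase subunit Ppp1r12c had -0.21 (adjusted p = 0.0689). Among 36 partners of actin filaments, 18 rose (50%) and 1 fell (2.78%). Of these, Flnc, Tmod1 and Vil1 rose but passed the filter through the knockout-labelled libraries alone, with no wild-type-labelled library at its minimum; of the other 33, 15 rose and 1 fell. The list was led by the transgelin relative Tagln2 (2.34, adjusted p = 7.77e-07), the actin-monomer binder Tmsb10 (2.02, adjusted p = 8.58e-06), the membrane linker Ezr (1.86, adjusted p = 1.26e-05) and filamin A, Flna (1.31, adjusted p = 2.10e-05). Of the 4 tested genes for serum response factor and its cofactors, Fhl2 rose (3.28, adjusted p = 0.000498), having likewise passed the filter through the knockout-labelled libraries alone, Srf, not called with DESeq2, fell in edgeR (-0.27, adjusted p = 0.0393), and Mrtfa (0.32, adjusted p = 0.0934) and Mrtfb (0.39, adjusted p = 0.0625) did not pass.

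On the microtubule side, 4 of 12 tested microtubule-associated proteins rose (33.3%) and none fell. They were Mapt, which encodes tau (2.67, adjusted p = 1.17e-05), Map4, the broadly expressed relative of tau (0.49, adjusted p = 0.000521), Map1b (2.37, adjusted p = 0.00274) and Map1a (1.73, adjusted p = 0.0181). Map1a reached the count minimum in no wild-type-labelled library and Map1b in 1, and of the 9 proteins at it in all 3, 2 rose. Of 7 tested genes of tubulin folding and turnover, Tbce (0.45, adjusted p = 0.00515), Tbcd (0.28, adjusted p = 0.0146) and Ttc5 (0.41, adjusted p = 0.0315) rose, where DESeq2 called 1 of the 3, and Stmn1 had 0.33 (adjusted p = 0.228). None of 14 tested enzymes of tubulin modification passed in edgeR, 1 had an unadjusted p under 0.05, and DESeq2 and limma-voom called 0. The 4 with the smallest p were Vash1 (0.52, adjusted p = 0.0792), Agbl5 (0.34, adjusted p = 0.128), Atat1 (-0.26, adjusted p = 0.13) and Ttll4 (-0.15, adjusted p = 0.162). Of relatives outside the symbol rule, none of 4 tested passed in edgeR, 0 were at an unadjusted p under 0.05, and DESeq2 and limma-voom called 0: Tubd1 (-0.41, adjusted p = 0.123), Tube1 (0.62, adjusted p = 0.217), the light chain kinase Mylk (0.09, adjusted p = 0.472) and Mylpf (-0.22, adjusted p = 0.663).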

How the data were processed

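Liver RNA libraries, 3 labelled WT and 3 labelled Mdr2-knockout, were analysed. Sample names in the tables are letters, and the letter N was read as WT because M begins the other titles. The authors deposited whole-number read counts per gene with no normalization, and FPKM values for the same genes, per the file headers. Counts and FPKM keep a constant ratio per gene (100% of 10790 genes within 0.1%), apart from 1 factor per library. Trimmomatic, HISAT2, Cufflinks, HTSeq, DESeq, Bowtie2, StringTie and SAMtools are named, with the mouse build mm10, in the submitters' processing notes; the role and version of each, and the strand setting, were not given in the sources used here. From the counts, edgeR 4.0.16 (R 4.3.3) was run with filterByExpr (minimum count 10, total 15), TMM factors and the robust quasi-likelihood test, no covariates, with Benjamini-Hochberg adjustment over all genes tested. The method was tested on simulated data. Alternatives were DESeq2 1.42.0, limma-voom (limma 3.58.1), scaling by RLE, by upper quartile or by total counts, no filter, a stricter filter (1 CPM in all 3 libraries of a group), each library left out, and a replicate block. No pair of replicates looked like a library deposited again (chi-square over its degrees of freedom was 16.0 or more). Shares were computed from FPKM within a family, with a two-sided exact permutation test. Gene positions come from GENCODE M21 (GRCm38, the sequence of mm10). In each role the 6 tested members with the smallest p and the one with the highest FPKM have values in every library or counts, the rest a summary; in each pathway list up to 4 genes with the smallest p are named. Some genes counted in the totals are not reported here by name. Members and lists were chosen with earlier results of these data known. Acta1, Ckm, Tnnc2, Pvalb, Krt14, Snap25, Cpa1, Ins2 and Nppb were not analysed here. Library depth, given with the results, sets the floor of 3 counts at 0.149 to 0.192 CPM.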

Additional observations from a re-analysis of the deposited data

How the results depend on the processing

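The number of members called higher (25) lay between 23 and 32 in the alternatives run, and between 23 and 25 when 1 library was left out. The number called lower (3) was 1 with total-count scaling and 3 to 4 elsewhere, 3 to 4 with 1 library left out. Of the 25 members called higher, 23 kept their call in every alternative that gave a value, Myo5b and Tpm2 being the exceptions, and of the 3 called lower Tuba4a did, Tubb4b and Tubg1 losing theirs with total-count scaling alone. Of the 17 that did not pass, 8 stayed so in all alternatives, and 5 changed sign with scaling. With raw counts in place of FPKM, the difference in the share of Tuba4a was -15.6 percentage points in place of -17.3, and that of Myo18a -9.73 in place of -8.40. Same-numbered samples did not deviate together (correlations 0.084, 0.045 and -0.076), so the numbers are not taken as pairs; with a replicate block 25 members were higher and 3 lower. Over all genes 94.7% of calls were higher with total-count scaling and 56.2% in the main setting. For members under 10 counts per library, depth limits what can be seen: 19 were left out, with at most 36 counts over the 6 libraries.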
